A study of Mus musculus with 38 samples.

Results

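Genes of cholesterol synthesis were followed across 38 RNA sequencing libraries of mouse tail skin in 6 groups. The genes were Hmgcs1, Idi1, Fdps, Fdft1, Sqle, Lss and Insig1, chosen by symbol, and 6 of these 7 were found among the 19218 genes of the count table; Hmgcs1 was not analysed here. Among the groups without injection, 9 libraries came from wild type mice without induction (called uninduced here) and 6 from wild type mice without induction given ABX (uninduced ABX). Another 9 had vitiligo induction (vitiligo) and 6 had induction and ABX (vitiligo ABX). The treatment labels of the groups with induction do not say wild type. A further 3 libraries came from wild type mice injected intraperitoneally with vehicle, and 5 from wild type mice injected the same way with hippuric acid, a glycine conjugate of benzoic acid that forms from products of gut microbes. Vitiligo is a loss of pigment cells from patches of skin, and ABX was used in the study to deplete gut microbes. The sources used here give no strain, age or sex, no dose, no method of induction and no cohort, so cohort and treatment cannot be told apart. They also do not say whether libraries came from separate mice, and p-values therefore measure the spread between these libraries, which may be technical.

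Cells build cholesterol from acetyl-CoA through mevalonate, isoprenoid phosphates, squalene and lanosterol. Transcription of nearly the whole pathway is driven by SREBP-2, the product of Srebf2, which is released from the endoplasmic reticulum when membrane sterol is low. In skin, keratinocytes make cholesterol for the lipid layers of the epidermal barrier, and sebaceous glands make lipids of their own. Idi1 encodes the isomerase that interconverts the basic isoprenoid building blocks, Fdps the synthase that joins these units into farnesyl diphosphate, and Fdft1 squalene synthase, the first enzyme committed to sterols. Sqle encodes squalene epoxidase, which adds the oxygen needed for ring closure, and Lss lanosterol synthase, which closes the sterol rings. Insig1 is not an enzyme: its product holds the SREBP escort protein in the endoplasmic reticulum when sterol is plentiful and is itself made from an SREBP target gene.

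Library totals ran from 15.3 to 27.9 M estimated counts, and the 6 genes had between 1065 and 15948 counts in every library. Levels are given as CPM, the usual unit of counts relative to the library total, with totals scaled by the trimmed mean of M values (TMM). Fdft1 had values that were not whole in 38 of 38 libraries and the other 5 genes in 0, so its level is uncertain if reads were divided between similar loci. The Y-linked transcript Ddx3y reached 1 CPM in 3 libraries, uninduced 011 and 012 and vehicle 001. The intestinal transcript Fabp2 reached 1 CPM in these 3 and in vitiligo 000 and 260. Skin markers were present in every group, with a basal keratinocyte level (mean log2(CPM + 1) of 7 genes) between 8.78 and 9.70. The skeletal muscle level (mean log2(CPM + 1) of 6 genes) ran from 0.18 to 1.43. Of these genes Myh4 was under 1 CPM in every library, Myl1 was called higher in vitiligo than in uninduced libraries (2.86 ± 1.23 against 0.46 ± 0.25 CPM), and Acta1 was called higher with hippuric acid than with vehicle (2.74 ± 1.13 against 0.17 ± 0.14 CPM); their part in the results was not tested.

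Proximal promoters are shown because the SREBP family binds close to the start sites of these genes, usually beside sites for the CCAAT-binding factor NF-Y or for Sp1. RefSeq windows of the GRCm38.p6 build matched 3 of the 6 genes, and the 250 bases before each start are printed 5′ to 3′ on the gene's strand. The windows are chr13:8885356-8885605 on the plus strand for Idi1, chr10:76531355-76531604 on the plus strand for Lss, and chr5:28071162-28071411 on the plus strand for Insig1. Capitals mark CCAAT, which in all 3 windows lies on the opposite strand and so reads ATTGG.
Idi1: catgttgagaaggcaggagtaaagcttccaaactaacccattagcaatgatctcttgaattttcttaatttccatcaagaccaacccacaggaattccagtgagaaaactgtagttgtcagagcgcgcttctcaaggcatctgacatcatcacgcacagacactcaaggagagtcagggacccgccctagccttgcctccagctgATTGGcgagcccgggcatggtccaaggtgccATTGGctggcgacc
Lss: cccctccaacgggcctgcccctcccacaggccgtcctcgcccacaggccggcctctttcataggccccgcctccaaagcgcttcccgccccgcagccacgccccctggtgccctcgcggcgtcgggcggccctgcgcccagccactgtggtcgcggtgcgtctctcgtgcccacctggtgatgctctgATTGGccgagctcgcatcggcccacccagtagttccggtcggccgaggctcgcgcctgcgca
Insig1: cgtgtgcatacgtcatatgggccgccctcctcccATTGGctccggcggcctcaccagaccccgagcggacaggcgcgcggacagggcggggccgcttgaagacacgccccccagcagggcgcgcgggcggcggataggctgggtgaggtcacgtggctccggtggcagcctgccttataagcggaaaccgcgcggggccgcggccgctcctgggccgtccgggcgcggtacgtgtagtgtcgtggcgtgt
CCAAT lay 45 and 14 bases before the start of Idi1, 62 before that of Lss and 216 before that of Insig1, and occurred on either strand in 33.8% of 32851 promoter windows of the same length. GGGCGG, the core of an Sp1 site, was found on either strand in all 3 windows and in 32.7% of all windows. In the Idi1 window it lay only on the opposite strand and so reads CCGCCC. TCACNCCAC, letters of a sterol regulatory element, was in none of these 3 windows on either strand and in 1.05% of all windows, which says only that these letters are not in these 250 bases.

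Idi1 had the highest level per length and the widest range of the 6 genes. Over 38 libraries its level was 502 ± 158 CPM (SD) and ran from 240 to 796, a 3.32-fold range, and 63.2% of the variance of its log2 level lay between groups. Sqle had the narrowest range, 1.88-fold, with 164 ± 24.7 CPM. Fdps stood at 158 ± 28.2 CPM, Fdft1 at 165 ± 27.3, Lss at 113 ± 23.7 and Insig1 at 154 ± 26.8 CPM over the same libraries. Per kilobase of annotated exon, the mean level was 143 CPM for Idi1, 49.9 for Insig1, 37.6 for Fdps, 29.5 for Sqle and 10.5 for Lss, with Fdft1 between Insig1 and Fdps. These lengths are of all annotated exons together, so a gene with long rare transcripts appears lower. Between groups lay 43.7% of the variance of Insig1, 32.8% of that of Fdft1, 28.7% of that of Lss, 27.2% of that of Sqle and 14.5% of that of Fdps.

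**Figure D1:**
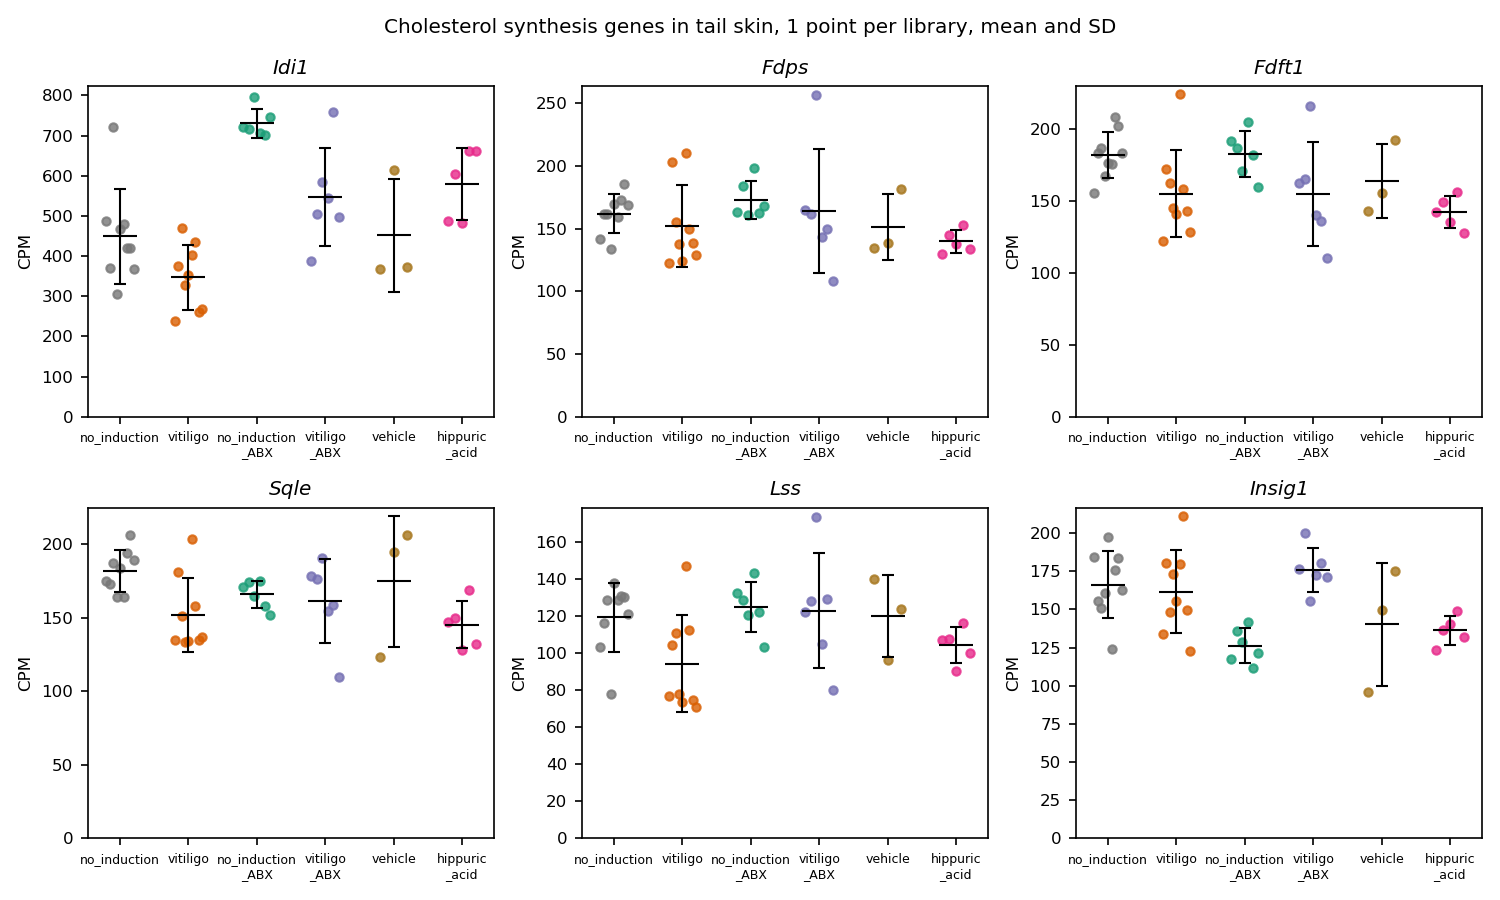
Levels of the 6 genes in CPM (vertical axis, linear) by group (horizontal axis, with uninduced groups named no_induction), 1 point per library, with the group mean and SD. Idi1 is highest in the uninduced ABX libraries (701 to 796 CPM), and Insig1 in those libraries (112 to 142 CPM) lies below all vitiligo ABX libraries (155 to 200 CPM).

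Idi1 ran from 306 to 721 CPM with a median of 421 in uninduced libraries, and from 240 to 470 with a median of 353 in vitiligo libraries. In uninduced ABX libraries its values were more even and high, from 701 to 796 with a median of 718 CPM. In vitiligo ABX libraries they ran from 389 to 758 with a median of 525 CPM. The 3 vehicle libraries had 368, 614 and 374 CPM, and the 5 hippuric acid libraries 488, 605, 482, 662 and 663 CPM. The order of the group means was thus uninduced ABX, hippuric acid, vitiligo ABX, vehicle, uninduced and vitiligo. Of its neighbours, uninduced ABX and hippuric acid did not overlap, and uninduced and vitiligo differed by slightly more than their spread while overlapping; the other neighbours did not differ beyond their spread.

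Insig1 was lowest in the group in which Idi1 was highest. It ran from 124 to 197 CPM (median 162) in uninduced, from 123 to 211 (median 156) in vitiligo, from 112 to 142 (median 125) in uninduced ABX and from 155 to 200 (median 174) in vitiligo ABX libraries. The vehicle libraries had 96.0, 150 and 175 CPM, and the hippuric acid libraries ran from 123 to 149 CPM. Vitiligo ABX was first in order and uninduced ABX last, with uninduced, vitiligo, vehicle and hippuric acid between them, and no 2 neighbours differed beyond their spread.

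The synthases Fdps and Fdft1 and the later enzymes Sqle and Lss differed less between groups. Fdps ranged from a group mean of 140 ± 9.06 CPM in hippuric acid (n = 5) to 173 ± 15.2 in uninduced ABX libraries (n = 6). Fdft1 ranged over the same pair of groups from 143 ± 11.3 to 183 ± 15.9 CPM. Sqle was lowest with hippuric acid, 145 ± 16.1 CPM, and highest in uninduced libraries, 182 ± 14.0 CPM (n = 9), whereas Lss was lowest in vitiligo, 94.4 ± 26.0 CPM (n = 9), and highest in uninduced ABX libraries, 125 ± 13.5 CPM. For these 4 genes no neighbours in the order of groups differed beyond their spread, and all neighbours overlapped.

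Vitiligo induction was the first contrast of the study. None of the 6 genes passed the test between vitiligo and uninduced libraries (edgeR quasi-likelihood F test, Benjamini-Hochberg adjusted p under 0.05 over all genes tested), against 7.74% of 13826 genes (5.27% higher and 2.47% lower). All 6 fold changes lay below 0, with a median log2 fold change of -0.22 against 0.01 over all genes. An unadjusted p under 0.05 was found for 4 of 6, and for 3658 of 13826 genes. Without the libraries with Y-linked transcripts this was 2 of 6, and 3950 of 13890 genes. Without those with Y-linked or intestinal transcripts it was 1 of 6, and 2917 of 13811 genes. In that last setting 5 of 6 lay below 0, with Idi1 at -0.22 and Lss at -0.20. Sqle ran from 164 to 206 CPM in uninduced libraries with a median of 184, and from 134 to 204 in vitiligo libraries with a median of 137. In 7 of 9 vitiligo libraries it lay below every uninduced library, and its log2 fold change was -0.24 ± 0.08 (SE, adjusted p = 0.0783). The log2 fold change was -0.35 ± 0.15 for Idi1 (adjusted p = 0.162), -0.32 ± 0.14 for Lss (0.151), -0.21 ± 0.10 for Fdft1 (0.173), -0.07 ± 0.10 for Fdps (0.72) and -0.02 ± 0.10 for Insig1 (0.94). Idi1, Fdft1, Sqle and Lss were each below the uninduced mean in 8 of 9 vitiligo libraries. The exception was the same library, 062, for Fdft1, Sqle and Lss, and library 006 for Idi1. The share of all genes with as many libraries below the uninduced mean, or below every uninduced library, was not counted.

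Vitiligo library 062 decided several of these calls. It had 224 CPM of Fdft1, 210 of Fdps, 204 of Sqle and 147 of Lss, the highest of its group for each. Its basal keratinocyte level was 9.70, where the other 8 vitiligo libraries had 8.78 to 9.10, and its sebaceous gland level of 7.66 was also the highest; the part of these cells in the values was not tested. Without this library Fdft1 fell by 0.29 (adjusted p = 0.0171), Sqle by 0.30 (0.00889) and Lss by 0.42 (0.0295) on the log2 scale, all 3 passing the test, where 1634 genes were called in all. Without vitiligo 001, Sqle alone passed with -0.27 (adjusted p = 0.0302). In that fit 2571 genes were called in all, the most of any fit with 1 library left out, against 1070 with all 18 libraries. DESeq2 called Sqle lower (-0.24, adjusted p = 0.0423), in a fit that called 1744 of 13826 genes, 728 of them lower. With all 18 libraries limma-voom called Fdps, Fdft1, Sqle and Lss lower, in a fit that called 5894 of 13826 genes, 2732 of them lower. In bulk tissue, fewer cells of a type and less RNA per cell cannot be told apart. In the same contrast 12 of 12 adipocyte markers were higher, with a level of 4.97 to 6.78 in uninduced and 7.47 to 9.03 in vitiligo libraries, and 0 of 7 basal keratinocyte markers were called. The 7 basal log2 fold changes lay between -0.43 and -0.06 with a median of -0.25, and the basal level was 8.94 to 9.46 in uninduced and 8.78 to 9.70 in vitiligo libraries. Of 9 hair follicle markers 2 were lower, with a median of -0.49 and all below 0. The part of these cell types in the values was not tested.

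ABX in uninduced skin went with more Idi1 and less Insig1. Idi1 was 1.64-fold higher in uninduced ABX than in uninduced libraries (log2 fold change 0.71 ± 0.14, adjusted p = 0.00119), above the uninduced mean in 6 of 6 and above every uninduced library in 3 of 6. Uninduced library 003, at 721 CPM against 306 to 487 in the other 8, made the groups overlap, and without it the log2 fold change was 0.83. Insig1 was lower (log2 fold change -0.39 ± 0.09, adjusted p = 0.00409), below the uninduced mean in 6 of 6 libraries and below every uninduced library in 3 of 6. Thus 2 of 6 genes were called, in opposite directions, a share close to the 31.1% of 13971 genes called (15.4% higher and 15.8% lower). Sqle had -0.12 ± 0.07 (adjusted p = 0.163), Fdps 0.10 (0.319), Lss 0.08 (0.625) and Fdft1 0.01 (0.906). Leaving out each library in turn gave 0.65 to 0.83 for Idi1 and -0.43 to -0.35 for Insig1, with both calls kept each time.

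With vitiligo induction, ABX libraries also had more Idi1. The level was 1.57-fold higher in vitiligo ABX than in vitiligo libraries (log2 fold change 0.65 ± 0.16, adjusted p = 0.0146), above the vitiligo mean in 6 of 6 and above every vitiligo library in 5 of 6. Idi1 was the 1 gene of 6 called, a share near the 13.1% of 14014 genes called (5.06% higher and 8.05% lower). The call was narrow without vitiligo ABX library 005, the highest at 758 CPM (0.54, adjusted p = 0.0475), and without the libraries with Y-linked or intestinal transcripts (0.54, adjusted p = 0.0486). Lss had 0.39 ± 0.18 (adjusted p = 0.162), Insig1 0.13 ± 0.11 (0.47), Fdps 0.11 (0.695), Sqle 0.09 (0.667) and Fdft1 0.00 (0.992). The vitiligo and uninduced libraries are the controls of both ABX contrasts and also make up the induction contrast, so these comparisons share libraries.

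Within ABX libraries, Insig1 separated induced from uninduced skin completely. Its values in uninduced ABX libraries were 118, 136, 128, 142, 112 and 122 CPM, and in vitiligo ABX libraries 176, 200, 155, 172, 180 and 171 CPM. The groups did not overlap, and the share of all genes without overlap was not counted. Insig1 was 1.41-fold higher with induction (log2 fold change 0.49 ± 0.08, adjusted p = 0.00758), the 1 gene of 6 called where 4.97% of 13876 genes were called (3.72% higher and 1.25% lower). Idi1 lay below every uninduced ABX library in 5 of 6 vitiligo ABX libraries, with -0.40 ± 0.13 and an adjusted p of 0.0881. Without vitiligo ABX 005 that gene passed with -0.52 (adjusted p = 0.0196), as it did in DESeq2 (-0.41, adjusted p = 0.0285) and limma-voom (-0.37, adjusted p = 0.0437). Fdft1 had -0.22 (adjusted p = 0.372), Fdps -0.06 (0.872), Sqle -0.03 (0.927) and Lss -0.01 (0.981). Of these, limma-voom called Fdft1 lower (-0.38, adjusted p = 0.026), in a fit that called 1530 of 13876 genes.

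The difference between the ABX effects with and without induction was tested as an interaction over 30 libraries. It was called for Insig1 (log2 0.50 ± 0.14, adjusted p = 0.0187), 1 gene of 6 where 11.5% of 14310 genes were called (6.68% higher and 4.77% lower). Leaving out each library in turn gave 0.46 to 0.56 with an adjusted p of at most 0.043. The interaction of Idi1 was -0.07 (adjusted p = 0.872), so its higher level with ABX was not shown to differ with induction. Lss had 0.30 ± 0.22 (adjusted p = 0.388), Sqle 0.20 ± 0.14 (0.362), and Fdps and Fdft1 -0.01 and -0.02 (0.991 and 0.943).

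**Figure D2:**
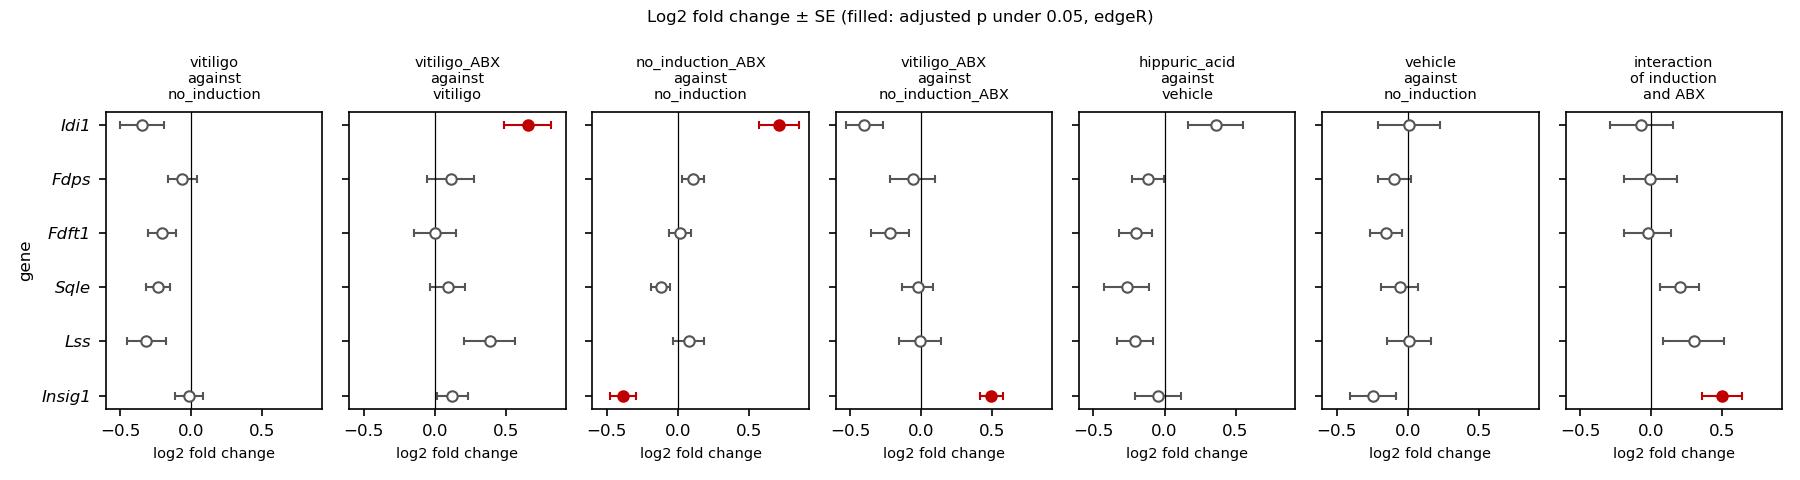
Log2 fold changes of the 6 genes (horizontal axis) with their standard errors in each comparison, with called genes marked. Idi1 is to the right of 0 in both ABX contrasts (0.71 and 0.65), and Insig1 is at -0.39 and 0.49 in the contrasts that involve uninduced ABX libraries.

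Several marker lists moved in the contrasts in which Idi1 and Insig1 were called. With ABX, 11 of 12 adipocyte markers were lower in uninduced skin and 12 of 12 in vitiligo skin, and the adipocyte level was 3.71 to 4.83 in uninduced ABX and 4.14 to 6.10 in vitiligo ABX libraries. Suprabasal keratinocyte markers were lower in 5 of 7 cases in each ABX contrast. The hair follicle level ran from 8.18 to 9.70 in uninduced, 7.65 to 9.36 in vitiligo, 6.07 to 8.35 in uninduced ABX and 8.55 to 9.67 in vitiligo ABX libraries. Of 9 hair follicle markers, 9 were lower with ABX in uninduced skin and 8 were higher in the interaction, the contrasts in which Insig1 was called lower and higher. Between the ABX groups, where Insig1 was also called higher, 3 of 9 were higher with induction, with a median log2 fold change of 1.57 and none below 1.25. In vitiligo ABX against vitiligo libraries 0 of 9 were called, with a median of 0.80. In vitiligo against uninduced libraries 2 of 9 were lower, with a median of -0.49. Insig1 was called in neither of these contrasts. No marker of these lists was under 1 CPM in all libraries, and the part of these cell types in the Idi1 and Insig1 values was not tested.

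None of the 6 genes passed the test between hippuric acid and vehicle. By edgeR 0 of 6 were called where 13.8% of 14097 genes were called (5.48% higher and 8.29% lower). By the same test 0 of 6 had an unadjusted p under 0.05, against 4247 of 14097 genes. DESeq2 and limma-voom also called 0 of 6. Sqle values were 147, 150, 128, 169 and 132 CPM with hippuric acid and 123, 195 and 206 CPM with vehicle, a log2 fold change of -0.27 ± 0.16 (adjusted p = 0.288). The low value of 123 CPM was vehicle 001, the library with Y-linked and intestinal transcripts, and without it Sqle was called lower (-0.44, adjusted p = 0.0177). In that fit 2786 of 14217 genes were called, 1341 of them lower, against 1940 of 14097 genes with vehicle 001 kept. Idi1 had 0.36 ± 0.19 (adjusted p = 0.237), and without vehicle 002, the library at 614 CPM, it was called higher (0.64, adjusted p = 0.0435). Fdft1 had -0.20 ± 0.11 (adjusted p = 0.261), Lss -0.21 ± 0.13 (0.306), Fdps -0.12 ± 0.11 (0.531) and Insig1 -0.04 ± 0.16 (0.888), with 5 of 5 hippuric acid libraries below the vehicle mean for Fdft1, Sqle and Lss and 5 of 5 above it for Idi1. The share of all genes with 5 of 5 libraries below or above the vehicle mean was not counted. With 3 vehicle libraries, 1 library decided each of the 2 calls of Sqle and Idi1.

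Vehicle and uninduced libraries differed in 0 of 14175 genes (edgeR; 509 at an unadjusted p under 0.05; DESeq2 7 and limma-voom 3), a share of 0%. Of the 6 genes 0 were called and 0 had an unadjusted p under 0.05, and Insig1 had the fold change farthest from 0, -0.25 ± 0.16 (adjusted p = 0.999).

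The other genes of the pathway were read from a list of 17, all of them tested in every comparison. With hippuric acid 6 of 17 were lower and 0 higher than with vehicle, with a median log2 fold change of -0.28 against 0.02 over all genes, where 8.29% of all genes were called lower. Pmvk, the kinase that makes mevalonate diphosphate, stood at 66.9 ± 15.0 CPM with vehicle and 42.4 ± 3.12 with hippuric acid (log2 fold change -0.66 ± 0.13, adjusted p = 0.00977). Dhcr7, the reductase of a last step to cholesterol, stood at 128 ± 21.3 and 85.7 ± 7.85 CPM (-0.58 ± 0.12, adjusted p = 0.0104). The sterol isomerase Ebp had -0.60 (adjusted p = 0.0126), the ketoreductase Hsd17b7 -0.74 (0.0224), the sterol reductase Tm7sf2 -0.55 (0.0343) and the thiolase Acat2 -0.29 (0.0477). For all 6 the groups did not overlap, but these 6 were picked by the test on the same values. The share of all genes without overlap was not counted. Without vehicle 001, 5 of 17 were lower, where 1341 of 14217 genes were called lower. In the same contrast 3 of 7 basal and 5 of 7 suprabasal keratinocyte markers and 11 of 12 adipocyte markers were lower; the basal level was 9.11 to 9.27 with vehicle and 8.78 to 8.98 with hippuric acid, and the part of these cells in the values was not tested.

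ABX in uninduced skin gave 5 calls among the 17, a share close to the 31.1% of all genes called there. Of the 17, 2 were higher, among them Acat2 (log2 fold change 0.29, adjusted p = 0.0349), and 3 were lower, Sc5d (-0.42, 0.00146), Pmvk (-0.49, 0.00479) and the mevalonate kinase Mvk (-0.26, 0.0185); without the 2 libraries with Y-linked transcripts, 1 was higher and 3 lower. Sc5d was also lower in vitiligo ABX than in vitiligo libraries (-0.45, adjusted p = 0.0108), the 1 gene of 17 called there, where 13.1% of all genes were called. Msmo1, a sterol methyl oxidase, was the 1 called between the ABX groups (lower with induction, -0.42, adjusted p = 0.0401), where 4.97% of all genes were called. None of the 17 was called between vitiligo and uninduced libraries, where their median was -0.15, in the interaction, or between vehicle and uninduced libraries.

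**Figure D3:**
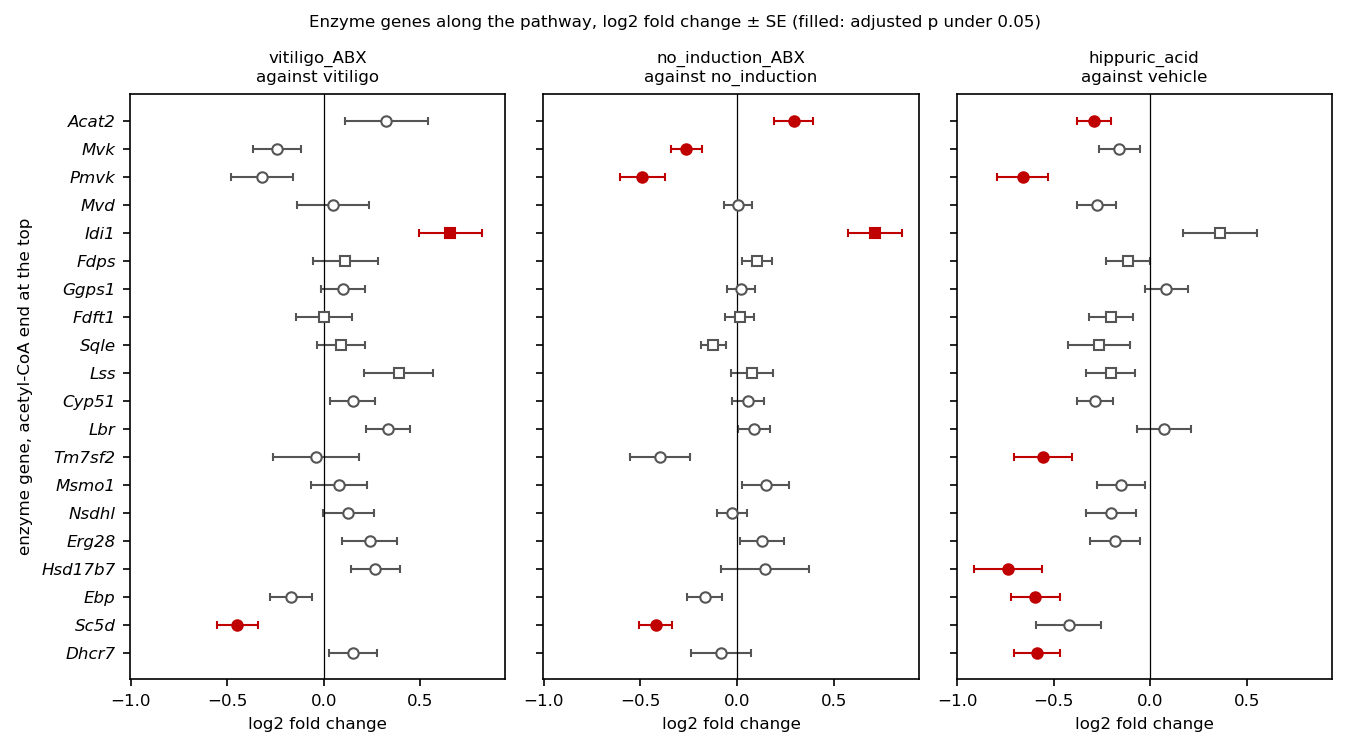
Log2 fold changes with their standard errors (horizontal axis) of pathway enzyme genes (rows, acetyl-CoA end at the top) in both ABX contrasts and the hippuric acid contrast (panels), with squares for Idi1, Fdps, Fdft1, Sqle and Lss, circles for other enzymes and filled symbols for called genes. In the hippuric acid panel 6 circles are called lower and no square is called.

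Regulators of sterol balance were read from a list of 16. Srebf2 was lower in vitiligo libraries, 167 ± 21.8 CPM against 206 ± 22.2 in uninduced libraries (log2 fold change -0.28 ± 0.08, adjusted p = 0.0385). It was the 1 of 16 called lower, where 2.47% of all genes were called lower and 5.27% higher. The 1 called higher was Nr1h3, the oxysterol receptor LXR alpha, with 13.1 ± 4.82 against 5.33 ± 1.98 CPM (1.33 ± 0.22, adjusted p = 0.000811). Nr1h3 was lower again in vitiligo ABX than in vitiligo libraries (-1.46, adjusted p = 0.00087) and in the interaction (-1.35, adjusted p = 0.00963). The adipocyte markers moved in the same direction as Nr1h3 in all 3 contrasts, with 12 of 12 higher, 12 of 12 lower and, in the interaction, 3 of 12 lower with a median of -0.96, and their part in the Nr1h3 values was not tested. Stard4, a sterol carrier and SREBP target, was lower with ABX in uninduced skin (-0.51, adjusted p = 0.00305), with ABX in vitiligo skin (-0.43, 0.0274) and with hippuric acid (-0.70, 0.0147). Of the 16, 0 were higher and 2 lower with ABX in uninduced skin, against 15.4% and 15.8% of all genes. With ABX in vitiligo skin 1 was higher and 3 lower, against 5.06% and 8.05%. With hippuric acid 1 was higher and 1 lower, against 5.48% and 8.29%. Srebf1, the gene of SREBP-1, was called in none of the comparisons.

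Differences between libraries of the same group were shared among 4 of the 6 genes. After group means were subtracted from log2(CPM + 1), the 6 pairs among Fdps, Fdft1, Sqle and Lss had Pearson r from 0.629 to 0.915 and Spearman rho from 0.598 to 0.891 over 38 libraries. All 6 passed a two-sided permutation test within groups, adjusted over 15 pairs. Fdps and Fdft1, consecutive enzymes of the pathway, were the closest pair (r = 0.915, rho = 0.891, unadjusted p = 1e-05 for both, the smallest that 100000 permutations can give, adjusted p = 5e-05), with r = 0.872 after the 2 libraries farthest from the median were left out. Pairs with Idi1 had r from 0.218 to 0.409, and 0 of 5 passed by Pearson and 1 by Spearman. Insig1 paired most closely with Sqle (r = 0.555, adjusted p = 0.00943; rho = 0.545, adjusted p = 0.00454; r = 0.51 without the 2 farthest libraries), and its other r values ran from 0.18 to 0.359. In all, 7 of 15 pairs passed by Pearson and 10 by Spearman. The share of pairs among all genes with r as high was not counted, so these values are not shown to be particular to the pathway.

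**Figure D4:**
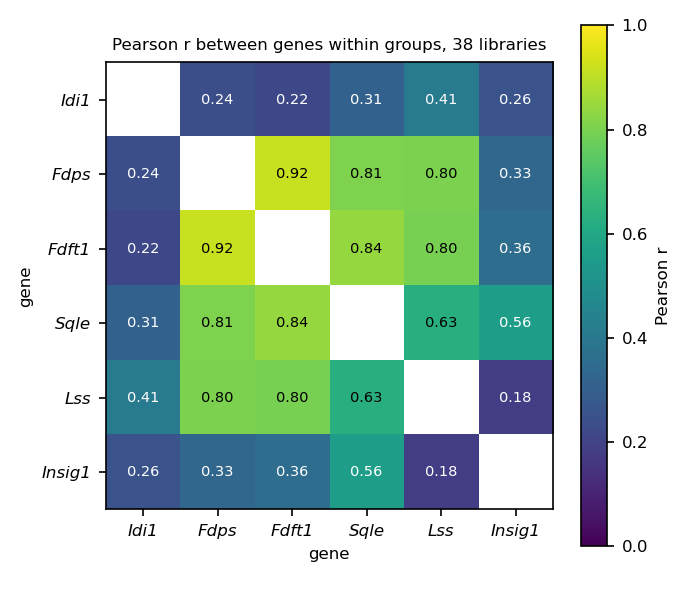
Pearson r between the 6 genes over 38 libraries after group means were subtracted (colour and printed value). Fdps, Fdft1, Sqle and Lss form the block of high values, 0.63 to 0.92, and Idi1 and Insig1 have lower values with each of them.

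The same 4 genes varied with the basal keratinocyte and sebaceous marker levels of the libraries. Within groups, Lss had r = 0.839 with the sebaceous gland level (rho = 0.764, permutation adjusted p = 0.00012 by Pearson and 0.00024 by Spearman over 24 relations) and r = 0.767 after the 2 libraries farthest from the median were left out. Its r with the basal keratinocyte level was 0.725 (rho = 0.602, adjusted p = 0.00012 and 0.0011; 0.646 without the 2 farthest). With the sebaceous and basal levels, Fdft1 had r = 0.67 and 0.718 (rho = 0.684 and 0.693), Fdps r = 0.647 and 0.595 (rho = 0.677 and 0.612), and Sqle r = 0.563 and 0.525 (rho = 0.595 and 0.496). Each of these had a permutation adjusted p of at most 0.00177 by Pearson and 0.00498 by Spearman, and r from 0.4 to 0.63 without the 2 farthest libraries. Idi1 had r = 0.38 with the sebaceous level (rho = 0.299, adjusted p = 0.103 and 0.22) and 0.0799 with the basal level (rho = 0.0942, adjusted p = 0.887 and 0.75). Insig1 had 0.201 (rho = 0.134, adjusted p = 0.486 and 0.645) and 0.0628 (rho = 0.0349, adjusted p = 0.887 and 0.949). None of the 12 relations with the adipocyte and suprabasal levels passed. The share of all genes with such relations to these marker levels was not counted.

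Genes whose pattern was most like the mean z-score of the 6 genes were ranked over 13370 other genes averaging at least 1 CPM in 38 libraries, as a description without a test. Among the 10 highest Pearson r were those of Acat2 (0.874), Hacd3 (0.868), Cyp51 (0.867), Aacs (0.842), Tmem97 (0.836), Prpsap1 (0.821), Hsd17b12 (0.816), Mvd (0.812) and Nomo1 (0.811). After group means were subtracted these 10 kept r between 0.782 and 0.881. Of the 17 other pathway genes 7 were among the first 100 and 8 among the first 1000, with a median r of 0.487 against 0.00506 over all genes ranked. Sc5d (-0.198) and Ggps1, which leads from farnesyl diphosphate to a side branch (-0.338), were negative.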

How the data were processed

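The authors deposited 1 table of estimated counts (expected counts) per gene for 38 libraries of poly(A)-selected tail skin RNA. HISAT2, Bowtie2 2.2.8, DESeq2 and StringTie 1.3.1 appear in the submitters' processing notes with no role stated; build, counter and use of strand are not given in the sources used here, so overlapping genes cannot be told apart. Of 19220 rows, 1 incomplete row and 1 row without a symbol were left out. Values were not whole in 3107 genes (16.2%) and were rounded. The genes and lists were chosen with earlier results of these data known. Libraries of a group differed by more than counting noise in every pair (chi-square over its degrees of freedom at least 7.33). Tests were two-sided edgeR 4.0.16 quasi-likelihood F tests in R 4.3.3 (TMM factors, filterByExpr, robust) on the groups compared, adjusted over all genes, called under 0.05 with no fold limit, and checked on simulated data. Of simulated 1.5-fold changes, 74.2% were called for vitiligo against uninduced, 50.9% for uninduced ABX against uninduced and 33.8% for hippuric acid against vehicle. False calls made up 4.44%, 3.59% and 6.62% of all calls there. Changes smaller than 1.5-fold were not simulated. Standard errors came from F. CPM used TMM-scaled totals of 38 libraries and a pseudocount of 1 on the log2 scale. Named were all members, up to 6 genes per list and comparison with the smallest p, fixed pathway genes always where measured (Srebf2, Msmo1, Srebf1, Soat1; 3 others are not reported here) and the 10 most alike; Ggps1, Ddx3y and Fabp2 were picked with their values in view. Other settings tried were RLE factors, filters, DESeq2 1.42.0, limma-voom 3.58.1, all libraries in 1 fit, a library-number block, and leaving out each library; leaving out libraries with Y-linked or intestinal transcripts was added after seeing the data.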

Additional observations from a re-analysis of the deposited data

Results flagged for a closer look

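Of 30 sets of library values tested for a value far from the others (6 genes in the 5 groups of 4 to 10 libraries), 2 held one, and chance gives about 1 in 20. Idi1 was 721 CPM in uninduced library 003, where the other 8 uninduced libraries had 306 to 487 CPM. Fdft1 was 224 CPM in vitiligo library 062, where the other 8 vitiligo libraries had 122 to 172 CPM.

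The effect of ABX on Insig1 differed with induction. The log2 fold change with ABX in vitiligo skin exceeded that in uninduced skin by 0.50 (edgeR interaction term, adjusted p = 0.0187): it was 0.13 with induction and -0.39 without, and Insig1 lay below the uninduced mean in 6 of 6 uninduced ABX libraries and above the vitiligo mean in 5 of 6 vitiligo ABX libraries.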

How the results depend on the processing

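No called value changed direction under the alternatives run. Of the fold changes of the 6 genes, 653 values with a library left out kept their side of the threshold, 7 passed it newly and 0 lost it; over the other settings these were 324, 10 and 2. For vitiligo against uninduced, genes called lower among the 6 numbered 1 with DESeq2 and 4 with limma-voom (0 in edgeR), and all genes called 1744, 5894, 1683 in 1 fit of all 38 libraries, and 511 without libraries with Y-linked or intestinal transcripts (1070 in edgeR). For vitiligo ABX against vitiligo, all genes called were 4399 with limma-voom, 2811 in the fit of all libraries and 961 without those libraries (1837). For uninduced ABX against uninduced, limma-voom called 2 of the 6 lower and 6567 genes (4351). Between the ABX groups, DESeq2 called 1 and limma-voom 2 of the 6 lower, and 1283 and 1530 genes (689). For hippuric acid, 1 of the 6 was lower without the library with Y-linked transcripts. For vehicle against uninduced, genes called were 7 with DESeq2, 3 with limma-voom and 5 without libraries with Y-linked transcripts (0), and in the interaction limma-voom called 4445 (1639). The cause was not tested. Leaving out 1 library gave 0 to 3 of the 6 lower and 688 to 2571 genes for vitiligo against uninduced, 1183 to 2803 genes for vitiligo ABX against vitiligo, 0 to 1 of the 6 lower and 228 to 863 genes between ABX groups, 0 to 1 higher, 0 to 1 lower and 1149 to 2786 genes for hippuric acid, 0 to 2 genes for vehicle and 1177 to 2679 for the interaction. The library numbers did not pair libraries (correlation of same-numbered libraries -0.199 to 0.333, not every library closest to its own number). With the replicate block, Idi1 in vitiligo ABX against vitiligo (0.05, adjusted p = 0.993) and Insig1 in the interaction (0.44, adjusted p = 0.362) were not called, leaving 0 of the 6 higher in each, and genes called were 155 for vitiligo ABX against vitiligo, 1435 for uninduced ABX, 887 for hippuric acid (1940), 6 for vehicle and 0 for the interaction (1586 at an unadjusted p under 0.05). No paired analysis was possible for vitiligo against uninduced because they share 1 number. The depth of at least 1065 counts per gene and library means that the spread between libraries, not counting, limits these comparisons.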

Other observations

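Fatty acid synthesis, which the related factor SREBP-1 drives, was read from a list of 12 genes, with calls by edgeR and adjusted p under 0.05. Scd1, the desaturase that makes oleate, was higher in vitiligo than in uninduced libraries (log2 fold change 0.64, adjusted p = 0.0044), the 1 of 12 called, where 7.74% of all genes were called. It was lower in vitiligo ABX than in vitiligo libraries (-1.10, adjusted p = 0.000655), together with Acaca (-0.47, 0.0218), while the desaturase Fads2 was higher (0.78, 0.00197), 3 of 12 where 13.1% of all genes were called. Fads2 was also higher with hippuric acid (0.67), where 2 of 12 were higher and 1 lower, against 5.48% and 8.29% of all genes. Scd1 is made in quantity by adipocytes and sebaceous glands; 12 of 12 adipocyte markers were higher with vitiligo induction and 12 of 12 lower with ABX in vitiligo skin, and their part in the Scd1 values was not tested.

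Of 6 tested genes that esterify, hydrolyse, sulfate or hydroxylate cholesterol, 3 were higher and 1 lower with ABX in uninduced skin, where 31.1% of all genes were called; the hydroxylases Cyp27a1 and Ch25h were not called. Soat1, which esterifies cholesterol, rose by 0.66 on the log2 scale (adjusted p = 0.00892), and the lysosomal lipase Lipa had 0.69 and the hydrolase Nceh1 0.65. Sult2b1, which makes the cholesterol sulfate of the epidermal barrier, was lower there (-0.54, adjusted p = 0.00399) and with hippuric acid (-0.47, adjusted p = 0.0152); suprabasal keratinocyte markers were lower in 5 of 7 cases in both contrasts, and their part in the Sult2b1 values was not tested. Soat1 is also in the sebaceous gland list, of which 4 of 14 were higher and 1 lower with ABX in uninduced skin.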
